A study of Rattus norvegicus with 23 samples.

Results

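Always shock-resistant (ASR) rats and delayed shock-resistant (DSR) rats both took methamphetamine (METH) through a second round of punishment, but they reached that state by different routes. The ASR rats kept pressing for METH despite footshocks in both punishment phases. The DSR rats, which the sample labels call resurgence shock-resistant, reduced their METH intake in the first phase and resisted in the second. The 11 dorsal striatal libraries of these rats (6 ASR and 5 DSR, of 23 libraries in all) were chosen by the treatment given in their labels. The comparison asks whether expression in the dorsal striatum differed between rats that were compulsive throughout and rats that became so late.

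All 11 animals were male Long Evans rats that self-administered 0.1 mg/kg METH per infusion for 22 days by the labels. Their first punishment phase of 8 days began at 0.18 mA and ended at 0.36 mA. They then spent 15 days in forced abstinence, self-administered METH for a further 12 days and met 0.30 mA footshocks over 3 days. They were euthanized the day after the last seeking test of a second abstinence. Control (CT, n = 6) rats took saline and met no footshocks, so they differ from the METH groups in both drug and shock. Always sensitive (AS, n = 6) rats took METH and reduced it in both punishment phases. Each library came from 1 rat, and the phenotypes were assigned from behavior rather than by randomization. The code of each rat opens with Grp7 or Grp8, a prefix whose meaning the labels do not state. Grp7 holds 3 ASR and 2 DSR rats, and Grp8 holds 3 of each.

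The dorsal striatum receives dense dopamine input from the midbrain and is known for its part in habit and in the passage from controlled to compulsive drug taking. Most of its neurons are GABAergic medium spiny neurons, which carry D1 or D2 dopamine receptors. METH enters dopamine terminals and releases dopamine, and repeated intake changes transcription in striatal neurons and glia. The libraries measured whole tissue, so fewer cells of a type and less RNA per cell cannot be told apart.

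Expression was measured as exonic read counts of Ensembl genes on the Rnor6.0 genome. The genes are named by identifier only, and markers of cell types or of the dissection were not analysed here. Library totals ran from 20946656 to 27767632 counts in ASR rats and from 24588332 to 28137676 in DSR rats. The share of counts on mitochondrial genes was 11.7 to 15.9% in ASR rats and 12.7 to 14.8% in DSR rats. Depth, composition and principal component scores did not separate the groups (8 measures, smallest two-sided exact permutation p = 0.16, smallest Benjamini-Hochberg adjusted p = 0.762).

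The individual rats did not sort by phenotype. The first principal component of the 11 libraries held 32.4% of the variance in log2 CPM, the counts scaled to a common library size. On this component ASR rats ranged from −23.4 to 31.9 (mean 8.92 ± 18.8 SD, n = 6) and DSR rats from −44.5 to 30.7 (mean −10.7 ± 28.9 SD, n = 5), and the exact permutation test gave p = 0.208. A pair of Grp8 libraries lay at the ends occupied mostly by the other phenotype. The library labelled DSR Grp8-L9 scored 30.7, next to the highest ASR rat, and the library labelled ASR Grp8-R7 scored −23.4, next to the DSR rat Grp8-R1 at −26.8. Whether the labels of these 2 libraries are right was not tested. They are kept under their labels, and the counts of genes are also given without each of them.

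**Figure D1:**
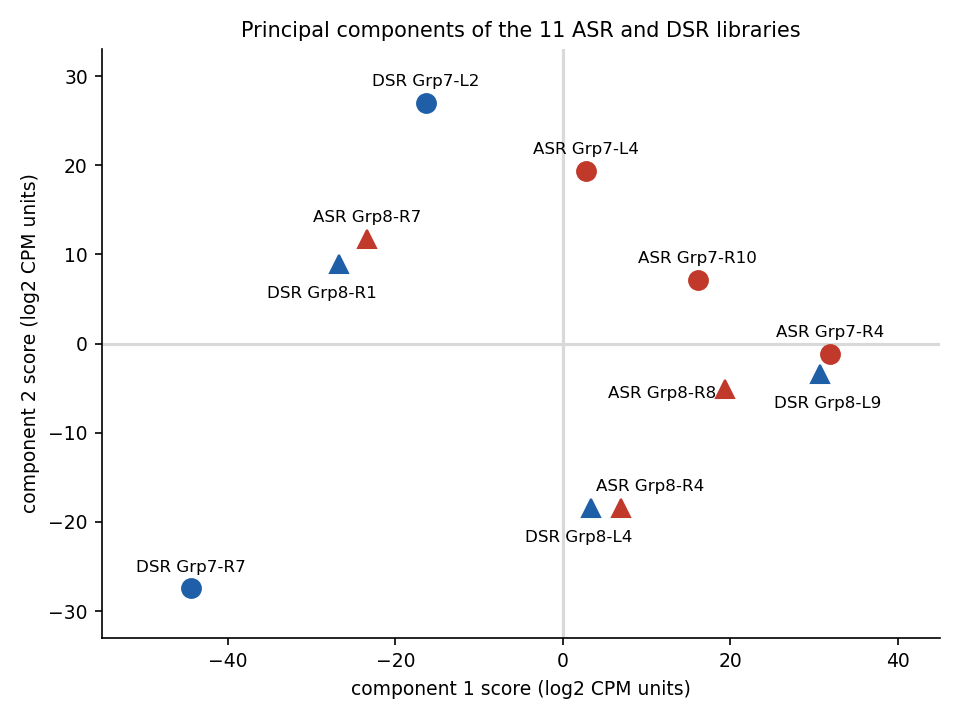
Scores of the 11 libraries on the first and second principal components of log2 CPM (red ASR, blue DSR, circles Grp7, triangles Grp8). ASR and DSR rats overlap along the first component, and DSR Grp8-L9 (30.7) lies beside ASR Grp7-R4 (31.9).

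Distances between libraries gave the same picture. The root mean square difference in log2 CPM over all genes tested had a median of 0.475 between an ASR and a DSR rat (0.368 to 0.674, 30 pairs). Pairs of ASR rats had a median of 0.45 (0.374 to 0.564, 15 pairs) and pairs of DSR rats 0.495 (0.416 to 0.668, 10 pairs). The nearest library to a rat was one of its own phenotype for 3 of the 11 rats. By median distance, 6 of the 11 rats were closer to their own phenotype than to the other. The spread among rats of one phenotype was also similar, with a median SD of log2 CPM per gene of 0.172 in ASR and 0.182 in DSR rats.

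In the test across genes, no gene differed between ASR and DSR rats at an adjusted p under 0.05. Of 16275 genes tested with edgeR's quasi-likelihood test, 699 had an unadjusted p under 0.05, which is 4.29% of the genes. If no gene differed, a fraction of about 0.05 would be expected under this threshold, which is more than was seen. The smallest adjusted p was 0.728. Of the 699, 367 were higher in ASR rats (2.25%) and 332 were lower (2.04%). With DESeq2 on all 23 libraries, 786 had an unadjusted p under 0.05 and 1 had an adjusted p under 0.05 (0.0493). With DESeq2 on only the 11 libraries these numbers were 887 and 0 (smallest adjusted p 0.146). That gene is ENSRNOG00000024922, described below, and its adjusted p was 0.728 with edgeR. Every ASR rat lay above every DSR rat in 25 genes (0.154%) and below every DSR rat in 26 genes (0.16%). For any gene, 1 of the 462 ways of splitting the 11 rats gives each of these orders. Over the same 16275 genes, the numbers were 197 and 127 without DSR Grp8-L9, and 73 and 112 without ASR Grp8-R7. With fewer rats to separate, such orders arise more easily, and whether that accounts for the rise was not tested. Both rats were also singled out in these same data.

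At a difference of at least 1.5-fold together with an unadjusted p under 0.05, 85 genes were higher in ASR rats (0.522% of those tested) and 51 were lower (0.313%). These 136 genes were mostly lowly expressed. Of the 85 higher genes, 54 averaged under 1 CPM over the 11 rats, 29 averaged 1 to 10 CPM and 2 averaged 10 to 100 CPM. Of the 51 lower genes, 34 averaged under 1 CPM and 17 averaged 1 to 10 CPM. None of the 2020 genes over 100 CPM was among the 136.

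Among well-expressed genes the data limit, gene by gene, how far the phenotype averages over all rats can differ. This does not bound the difference within Grp7 or within Grp8 rats. For genes of 10 to 100 CPM the median standard error of the log2 fold change was 0.082, and for 7485 of these 8011 genes (93.4%) the 95% interval of the difference lay within 1.5-fold in either direction. The same held for 1899 of 2020 genes over 100 CPM (94.0%). It held for 2488 of 4337 genes at 1 to 10 CPM (57.4%) and for 48 of 1907 genes under 1 CPM (2.52%), where the median standard error was 0.368. Without DSR Grp8-L9 the share was 89.8% at 10 to 100 CPM and 91.0% over 100 CPM, and without ASR Grp8-R7 it was 91.1% and 91.7%. In the class under 1 CPM a 1.5-fold difference was mostly not detectable with these rats and this depth.

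**Figure D2:**
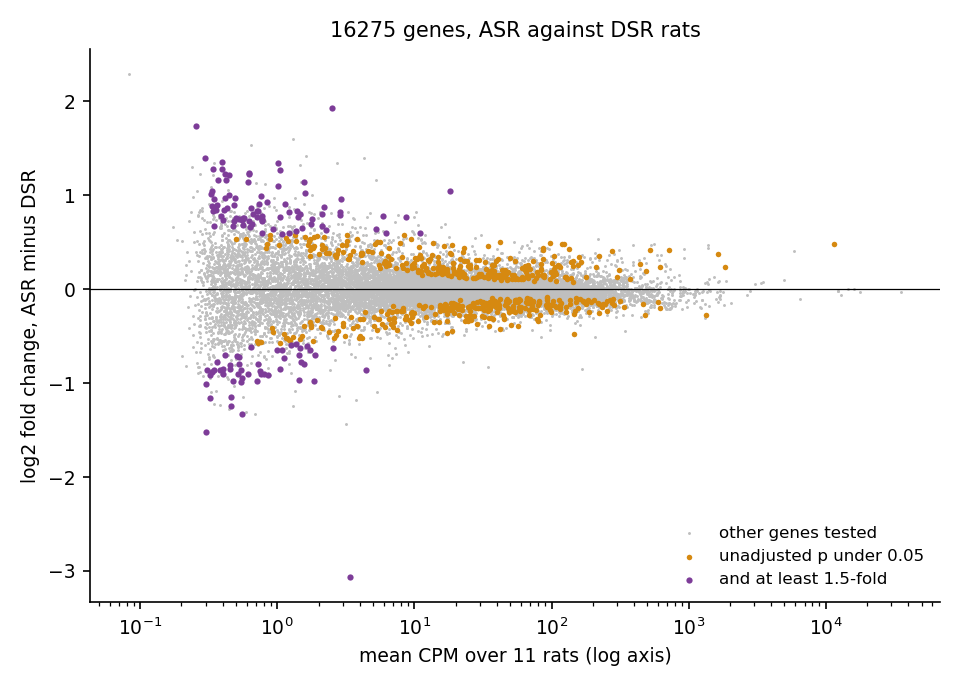
Log2 fold change of ASR minus DSR rats for each of 16275 genes (vertical axis) against its mean CPM over the 11 rats (horizontal axis, logarithmic). Orange points have an unadjusted p under 0.05, purple points are also at least 1.5-fold different, and none of the purple points lies above 100 CPM.

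The 4 genes named here were chosen after their values were seen. They have the 2 smallest p-values in each direction among genes with at least 1.5-fold difference, a mean of at least 1 CPM and at least 4 exon records. Their p-values are therefore descriptions rather than independent tests. No other listed gene overlaps any of them.

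The gene with the smallest p of all was lower in ASR rats. ENSRNOG00000024922 lies on the plus strand of chromosome 12 from 22142520 to 22152871, with 10 exon records and 2095 exonic bases. It had 0.853, 1.21, 1.31, 0.936, 0.934 and 0.788 CPM in the 6 ASR rats. It had 2.35, 1.88, 1.78, 2.21 and 1.61 CPM in the 5 DSR rats. Every ASR rat was below every DSR rat, DSR Grp8-L9 included. The log2 fold change was −0.96 ± 0.19 (SE), with an unadjusted p of 4.48e-05 and an adjusted p of 0.728. The medians of CT rats (1.34 CPM, range 0.924 to 2.18) and AS rats (1.6 CPM, range 1.25 to 1.82) lay between those of the ASR and DSR rats. The difference was −0.91 in Grp7 rats and −1.07 in Grp8 rats, with unadjusted p of 0.00866 and 0.00228 from fits of those rats. Counts behind these values were 19 to 65 reads per library, so counting error adds to the spread between rats.

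ENSRNOG00000020729 was the second gene lower in ASR rats. It lies on the plus strand of chromosome 10 from 16542882 to 16553295, with 4 exon records. ASR rats had 1.0, 1.17, 1.19, 1.45, 1.62 and 1.62 CPM, and DSR rats had 2.39, 2.43, 1.51, 1.73 and 2.09 CPM. The groups overlapped, because DSR Grp8-L4 at 1.51 CPM was under the 2 highest ASR rats. The log2 fold change was −0.60 ± 0.18 (SE), with an unadjusted p of 0.00324 and an adjusted p of 0.846. The difference was uneven between the prefixes, at −1.1 in Grp7 rats and −0.18 in Grp8 rats, where its unadjusted p was 0.461. The test of that difference gave 0.92 ± 0.32 (SE, log2), with an unadjusted p of 0.00925 and an adjusted p of 0.511 over all genes.

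Both named genes that were higher in ASR rats had every ASR rat above every DSR rat. ENSRNOG00000015902 lies on the minus strand of chromosome 1 from 204048785 to 204087001, with 11 exon records. ASR rats had 3.34, 5.38, 2.95, 3.11, 3.98 and 2.65 CPM, and DSR rats had 1.88, 2.07, 2.3, 1.65 and 2.17 CPM. The log2 fold change was 0.82 ± 0.22 (SE), with an unadjusted p of 0.00113 and an adjusted p of 0.846. AS rats were near the ASR rats (2.25 to 5.34 CPM, median 3.44) and CT rats nearer the DSR rats (1.6 to 3.76 CPM, median 2.24). The difference was 0.97 in Grp7 rats and 0.67 in Grp8 rats, with unadjusted p of 0.0224 and 0.0223 from edgeR fits of those rats. Within Grp8 it was 0.53 without DSR Grp8-L9 (unadjusted p 0.0804) and 0.50 without ASR Grp8-R7 (0.0897).

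ENSRNOG00000015157 lies on the minus strand of chromosome 10 from 58951842 to 58973020, with 8 exon records. ASR rats had 2.78, 5.19, 4.07, 2.85, 2.8 and 3.57 CPM, and DSR rats had 1.99, 2.23, 2.38, 2.13 and 1.49 CPM. The log2 fold change was 0.79 ± 0.24 (SE), with an unadjusted p of 0.00262 and an adjusted p of 0.846. AS rats ran from 2.79 to 5.42 CPM (median 3.48) and CT rats from 1.6 to 3.79 CPM (median 2.26). For this gene the difference in Grp8 rats alone was 0.62 with an unadjusted p of 0.0783, and in Grp7 rats it was 0.92 with 0.0163.

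Exact two-sided permutation tests on log2 CPM gave p = 0.00433 for the 3 genes whose groups do not overlap, the smallest value that 462 ways of splitting the 11 rats allow, and p = 0.0173 for ENSRNOG00000020729.

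**Figure D3:**
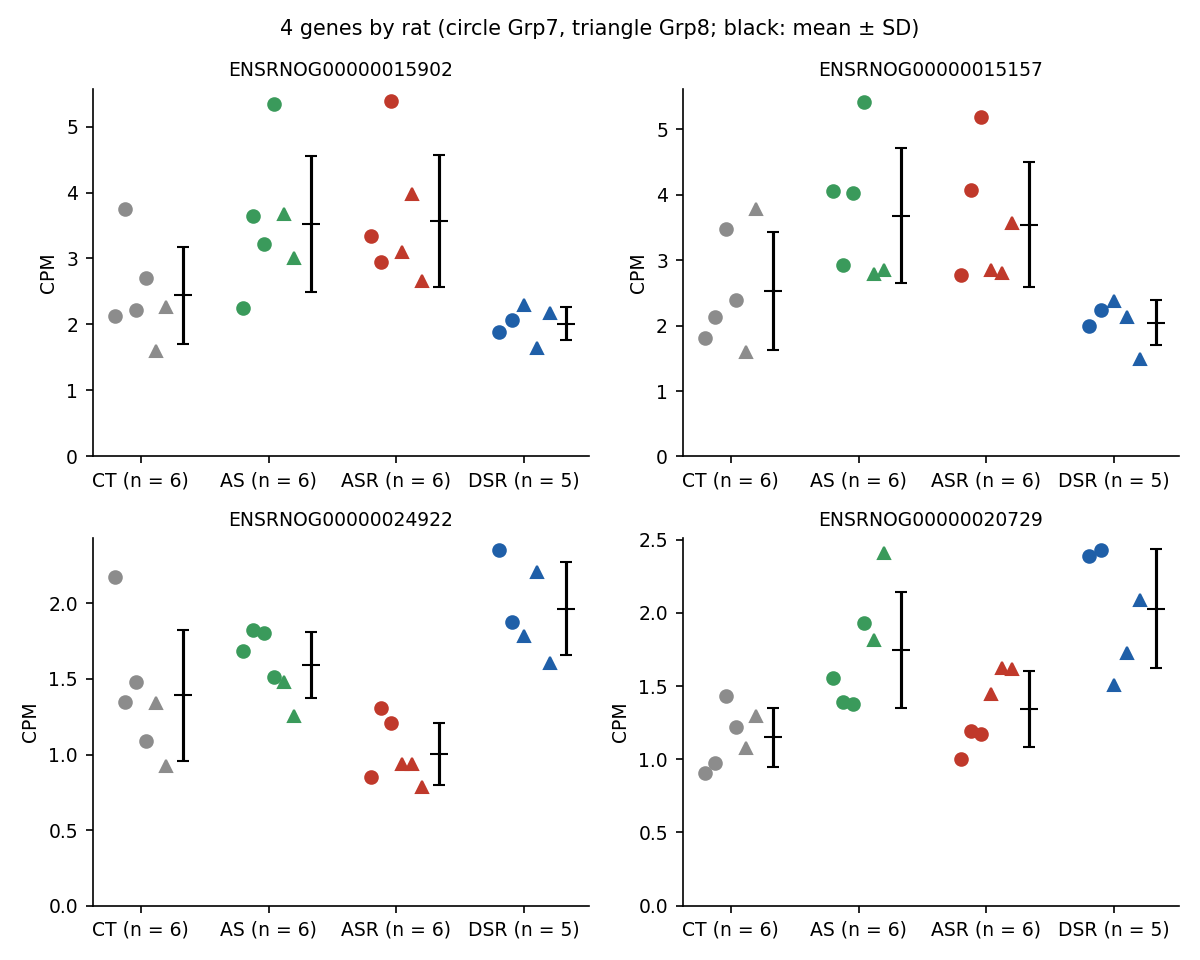
CPM of the 4 named genes in each rat of the 4 groups (circles Grp7, triangles Grp8), with the mean and SD in black. In 3 of the panels no ASR point overlaps a DSR point, and in the panel of ENSRNOG00000020729 they overlap.

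Among the 136 genes, the largest difference in each direction came from a gene in which some rats stood apart from others of their own phenotype. The gene with the most negative log2 fold change, −3.07 ± 0.98 (SE), had 15.4 CPM in DSR Grp7-L2 and 15.4 CPM in DSR Grp8-R1. It had 0.626, 0.833 and 0.522 CPM in the other DSR rats and 0.207 to 1.19 CPM in ASR rats. AS rats showed the same division, with 12.5 and 11.2 CPM in 2 of them and under 1 CPM in the others. No CT or ASR rat was above 10 CPM. The gene of the 136 with the largest positive value, 1.93 ± 0.85 (SE), had 0.326, 0.352, 0.436 and 0.12 CPM in 4 DSR rats and 3.69 CPM in DSR Grp8-L9. ASR rats ran from 0.373 to 6.24 CPM (median 3.67), so the groups overlapped at both ends.

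The gene structure listed with the counts gave a weak gradient. Short genes leaned toward ASR rats and long genes toward DSR rats in the fit of all rats and in the Grp7 rats, but not in the Grp8 rats. Of 5473 genes spanning under 10 kb from first to last exon, 164 were higher in ASR rats at an unadjusted p under 0.05 and 75 were lower (3.0% and 1.37%, against 2.25% and 2.04% of all genes). Of 1876 genes spanning 100 to 500 kb, 30 were higher and 47 lower (1.6% and 2.51%). Of 113 genes spanning 500 kb or more, none was higher and 4 were lower (3.54%). The longest brain genes include many for synaptic adhesion proteins and ion channels. The median log2 fold change fell from 0.01 in the shortest class to −0.11 in the longest, against −0.00449 over all genes.

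In Grp7 rats the median of the longest class was −0.26, and in Grp8 rats it was 0.02. Within Grp8 it was 0.00327 without DSR Grp8-L9 and −0.01 without ASR Grp8-R7. The mean log2 CPM of the longest class minus that of the shortest was 1.21 to 1.27 in the 3 ASR rats of Grp7 and 1.42 to 1.59 in the 2 DSR rats. In Grp8 it was 1.29 to 1.55 in ASR rats and 1.3 to 1.49 in DSR rats, so the phenotypes overlapped there. CT rats ran from 1.13 to 1.65, which covers every ASR and DSR rat, and AS rats from 1.07 to 1.29. RLE scaling in place of TMM left the median of the longest class at −0.11, and leaving out either DSR Grp8-L9 (−0.13) or ASR Grp8-R7 (−0.14) made it lower. Leaving out DSR Grp7-R7 gave −0.06. The cause of the gradient was not tested.

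**Figure D4:**
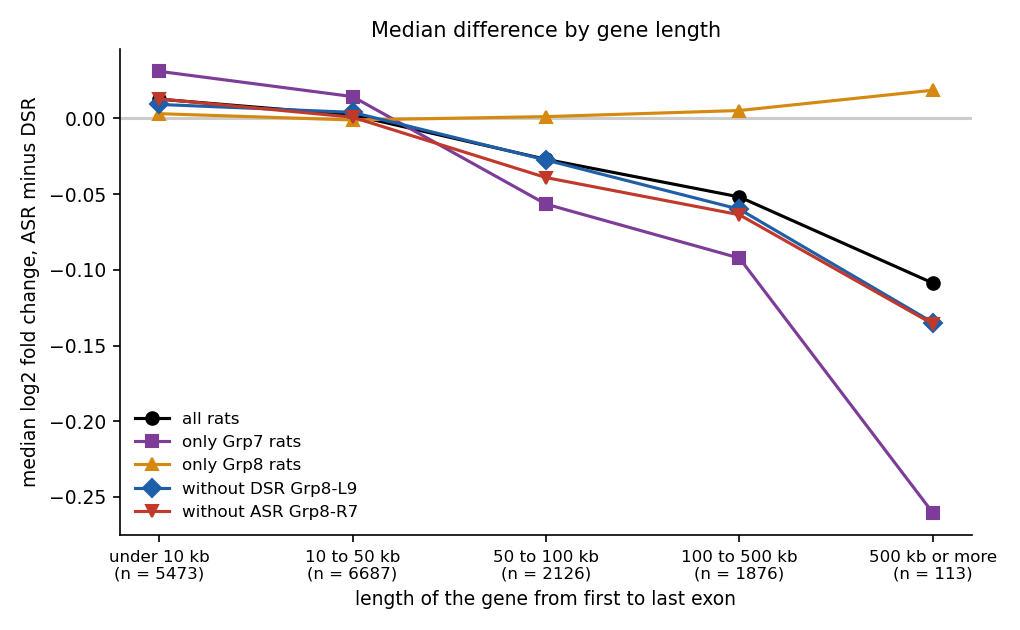
Median log2 fold change of ASR minus DSR rats (vertical axis) in 5 classes of gene length (horizontal axis, number of genes below each class), for all rats, for Grp7 and Grp8 rats apart and without each of 2 rats. The line of the Grp7 rats reaches −0.26 in the longest class and the line of the Grp8 rats stays near 0.

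The sex chromosomes and the mitochondrial genome gave few genes. On the X chromosome 10 of 549 genes were higher in ASR rats and 16 lower (1.82% and 2.91%, near the 2.25% and 2.04% of all genes). On the Y chromosome 2 of 8 genes tested were lower and none higher. None of the 30 mitochondrial genes tested, which encode parts of the respiratory chain and its ribosomal and transfer RNAs, had an unadjusted p under 0.05, and their median log2 fold change was −0.02. Beside the 4.29% over all genes, sets of 8 and 30 genes are too small to place.

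The number of genes depended on which rats were included. Leaving out DSR Grp8-L9 raised the genes with an unadjusted p under 0.05 from 699 to 1862 (11.4%), of which 1167 were higher in ASR rats (7.17%) and 695 lower (4.27%). At 1.5-fold the number rose to 430, of which 361 were higher. Leaving out ASR Grp8-R7 raised the 699 to 1342. Leaving out DSR Grp7-R7 lowered it to 337, and leaving out ASR Grp7-R4 lowered it to 434. In each of the 11 fits without 1 rat, 0 genes passed after adjustment, and the smallest adjusted p among them was 0.414, without DSR Grp8-L9.

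Each rat was then set against genes it had no part in choosing. Genes were taken from the fit without a rat, at an unadjusted p under 0.05, and the level of that rat was compared with the means of the remaining ASR and DSR rats. The rat lay nearer its own phenotype in over 50% of these genes for 5 of the 11 rats. The shares nearest the own phenotype were highest for ASR Grp7-R10 (71.5% of 498 genes) and ASR Grp7-R4 (69.4% of 434). DSR Grp8-L9 lay nearer the ASR mean in 89.4% of 1862 genes. ASR Grp8-R7 lay nearer the DSR mean in 80.5% of 1342 genes. For the other DSR rats the share nearer the ASR mean was 34.7% (Grp7-R7), 47.9% (Grp8-L4), 55.3% (Grp8-R1) and 56.4% (Grp7-L2). These shares have no test, since genes move together and are not independent. The share over all genes tested was not computed for the rat left out, so 50% is only a midpoint.

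**Figure D5:**
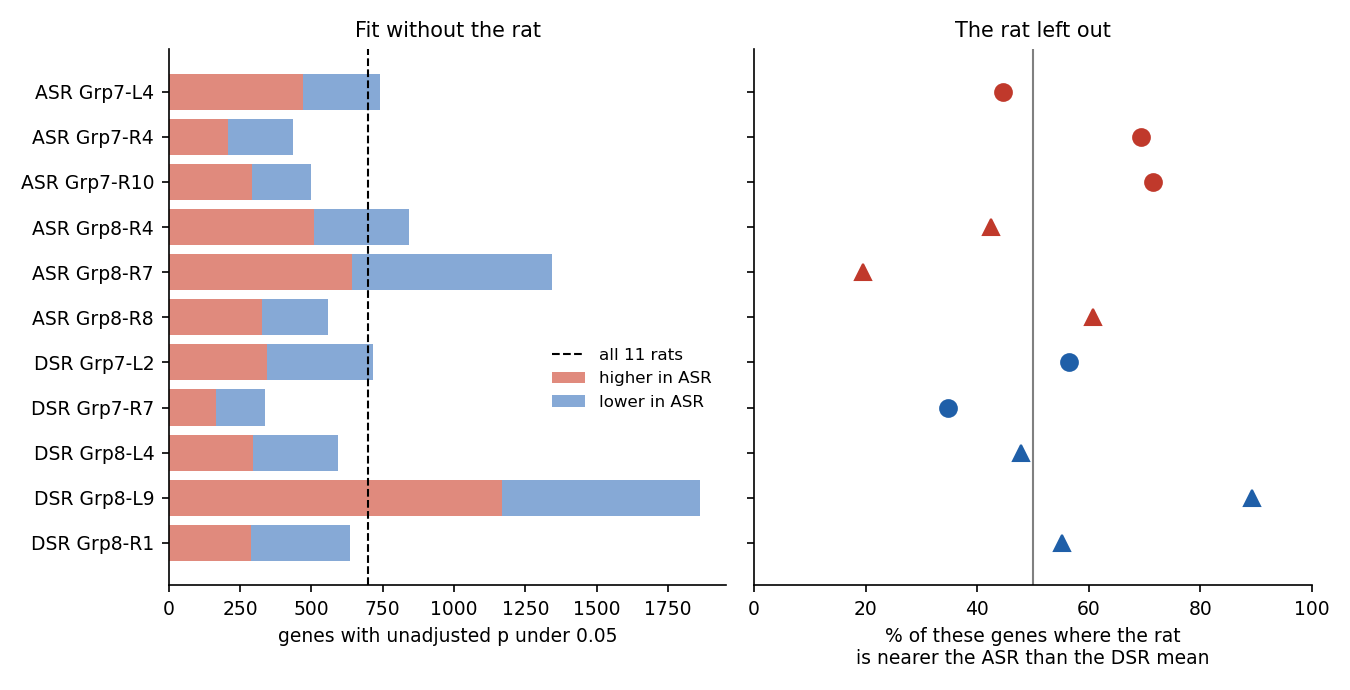
Left, genes with an unadjusted p under 0.05 in the fit without each rat (bars, higher or lower in ASR; dashed line, all 11 rats at 699). Right, percentage of those genes in which the rat left out lies nearer the ASR than the DSR mean (red ASR, blue DSR, circles Grp7, triangles Grp8), with DSR Grp8-L9 at 89.4% and ASR Grp8-R7 at 19.5%.

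The Grp7 and Grp8 rats gave different answers to the same comparison. In Grp7 rats (3 ASR and 2 DSR) 2694 genes had an unadjusted p under 0.05 (16.6%), with 1397 higher (8.58%) and 1297 lower in ASR rats (7.97%). In Grp8 rats (3 and 3) there were 237 (1.46%), with 87 higher (0.535%) and 150 lower (0.922%). Each fit also held the CT and AS rats of its prefix, 4 of each in Grp7 and 2 of each in Grp8. The 2 fits therefore differ in the rats behind the spread, and their numbers of genes are not on equal terms. Across genes, the log2 fold changes of the 2 sets of rats had a Pearson r of −0.10 (Spearman rho −0.09). Genes are not independent replicates, so no p is given. Of the 2694 genes, 1106 (41.1%) had the same sign in Grp8 rats, against 46.8% of all genes. A total of 26 genes were below 0.05 in both (0.965% of 2694 and 10.97% of 237), and 6 of them had the same direction.

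Without DSR Grp8-L9, r was 0.18 and 67.1% of the 2694 genes had the same sign in the remaining Grp8 rats, of which 2 were DSR, against 57.8% of all genes. The number of genes below 0.05 in those Grp8 rats was 300, and 21 of the 32 below 0.05 in both sets had the same direction. Without ASR Grp8-R7 instead, r was 0.08, 64.2% of the 2694 genes had the same sign against 55.8% of all genes, and 15 of 25 genes below 0.05 in both had the same direction. Both rats were singled out in these same data for lying on the side of the other phenotype. A rise in agreement after leaving either out is therefore partly built in. No other Grp8 rat was left out of this comparison. The test of the difference between the 2 prefixes in ASR minus DSR found 1539 genes with an unadjusted p under 0.05 (9.46%) and none with an adjusted p under 0.05 by edgeR (smallest 0.511). It found 897 (5.51%) at an unadjusted p under 0.05 without DSR Grp8-L9 and 935 (5.75%) without ASR Grp8-R7. Both shares were below the 9.46% of all rats, and the smallest adjusted p was 0.84 and 0.806. These fits hold fewer rats, and no other rat was left out of this test. The fall in the share can therefore not be credited to these rats. With the prefix as a covariate in the fit of all rats, 614 genes were below 0.05, with 306 higher and 308 lower in ASR rats, and the smallest adjusted p was 0.141.

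The saline and always sensitive rats were then set beside these differences. The comparisons that follow share the CT and AS libraries, so their values are given side by side only. They also use the same ASR and DSR libraries from which the genes were chosen. Genes chosen for a large ASR minus DSR difference tend to have opposite signs for ASR and DSR against another group. Such a split is therefore largely built in and is not a separate result. For the 85 genes at least 1.5-fold higher in ASR rats, the median log2 fold change was 0.40 for ASR minus CT and −0.37 for DSR minus CT. It was 0.13 for ASR minus AS and −0.66 for DSR minus AS. For the 51 lower genes the medians were −0.46 and 0.37 against CT, and −0.38 and 0.44 against AS.

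The CT mean lay between the ASR and DSR means in 59 of 85 and 39 of 51 genes (69.4% and 76.5%, against 37.3% of all genes). These genes were chosen for means that lie far apart, so a high share is built in. The AS mean was nearer the ASR than the DSR mean in 64 of the 85 higher genes (75.3%) and in 26 of the 51 lower genes (51.0%). Over all genes tested it was nearer the ASR mean in 69.8%. Of the genes with an unadjusted p under 0.05 at any fold, it was nearer the ASR mean in 322 of 367 higher (87.7%) and 258 of 332 lower genes (77.7%). The CT mean was nearer the ASR mean in 43.5% of the 85 genes and 43.1% of the 51 genes. It was nearer the ASR mean in 53.4% of the 367 and 55.7% of the 332 genes, against 50.5% over all genes. In the 11 fits without 1 rat the AS mean was nearer the ASR mean in 74.5 to 94.4% of the genes below 0.05, against 64.7 to 74.3% of all genes, with the highest shares without DSR Grp8-L9.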

How the data were processed

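Dorsal striatal mRNA was enriched with oligo(dT), made into libraries without a strand-marking step named in the labels, and sequenced as paired-end reads. By the submitters' processing notes the software was Trimmomatic 0.36 for trimming, STAR 2.5.2b for mapping to Rnor6.0 and featureCounts of Subread 1.5.2 for unique exonic reads. The authors deposited unnormalized counts for 32552 Ensembl genes.

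Groups were taken from the labels. Counts of all 23 libraries (18967015 to 28137676 per library) were scaled with TMM factors and fitted in one quasi-likelihood model of 4 groups with edgeR 4.0.16 in R 4.3.3 (19 residual degrees of freedom), after filterByExpr (count 10, total count 15) left 16275 genes. ASR minus DSR was a contrast, and p-values were adjusted over all genes tested by the Benjamini-Hochberg method. The threshold was an unadjusted p under 0.05, alone or with at least 1.5-fold change. Standard errors follow from the log2 fold change and its F statistic. Log2 CPM used a prior count of 2. Precision at low counts is limited by counting error as well as by differences between rats.

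The rats compared, the gene lists and the tests were chosen with earlier results of these data known. The rule for naming genes required gene symbols. Of the 32552 identifiers, 0 matched the RefSeq table of GRCr8, so the rule selected no gene, and the gene lists and markers were not analysed here. No sequences are printed. The 4 printed identifiers were picked with their values in view. Alternatives were DESeq2 1.42.0, edgeR on 11 libraries, RLE factors, the Grp prefix or the mitochondrial share as a covariate, all genes with at least 1 count, a stricter limit of 1.5 on the log2 fold change, and each rat left out in turn. Counts of genes within Grp7 and within Grp8 rats, and values without DSR Grp8-L9 or ASR Grp8-R7 beyond the counts of genes, were added after the data were seen.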

Additional observations from a re-analysis of the deposited data

Results flagged for a closer look

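The number of genes with an unadjusted p under 0.05 was far higher without DSR Grp8-L9 (1862) than without any other DSR rat (337 to 716), which made this rat stand apart from its group. It was 1 of 30 sets of values looked at in this way, in which chance would single out about 1.5. The difference between Grp8 and Grp7 rats in the ASR minus DSR log2 fold change of ENSRNOG00000020729 was 0.92 ± 0.32 (SE), with an unadjusted p of 0.00925 and an adjusted p of 0.511 by edgeR's quasi-likelihood test.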

How the results depend on the processing

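Without the filter on low counts, 1106 of 25593 genes had an unadjusted p under 0.05 (4.32%, against 4.29% with the filter). Of the 25593, 540 were also at least 1.5-fold different (2.11%, against 0.836% with the filter). With the filter, a log2 fold change over 1.5 left 4 genes. Within Grp7 rats 2694 genes had an unadjusted p under 0.05 and 1034 were also at least 1.5-fold different. Within Grp8 rats 237 genes had an unadjusted p under 0.05, 300 without DSR Grp8-L9 and 261 without ASR Grp8-R7. DESeq2 on all libraries gave 1 gene at an adjusted p under 0.05, where edgeR and DESeq2 on the 11 libraries gave 0. Fits without 1 rat moved the 699 genes to between 337 and 1862 and the 136 genes to between 104 and 430, with 1342 and 223 without ASR Grp8-R7, 1862 and 430 without DSR Grp8-L9, 434 without ASR Grp7-R4 and 337 without DSR Grp7-R7. Both totals stayed within 1.5 times under the other alternatives, while genes lower in ASR rats fell from 332 to 205 without ASR Grp7-R10. The 4 named genes kept their direction in all 88 refits and an unadjusted p under 0.05 in the 44 that left out 1 rat. They were chosen for small p-values in the fit of all rats, and those 44 refits reuse all but 1 of the rats. Keeping direction and a small p there is therefore largely built in. The 8 refits in which a named gene lost an unadjusted p under 0.05 all used Grp8 rats only. No paired analysis was possible because the full code of each rat, such as Grp7-L4, occurs in 1 group only. The cause of these changes was not tested. The 11 rats and the depth limit what can be said of genes under 1 CPM.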
